A study of Mus musculus with 12 samples.

Results

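Cells that carried no GFP signal, called LGR5- cells, were sorted from mouse organoids labelled as liver cancer, and their RNA was sequenced with and without 5-fluorouracil (5-FU). This report describes what 5-FU did to the transcriptome of the LGR5- cells. Members were the 3 untreated and the 3 5-FU-treated LGR5- samples, 6 of the 12 samples in the series, and the other 6 were LGR5+ cells under the same conditions. All 12 came from C57BL/6 mice of the genotype LGR5-DTRGFP+, whose *Lgr5* locus drives GFP and a receptor for diphtheria toxin, so the untreated controls carry the knock-in as well. The liver tumors behind the organoids had been induced by diethylnitrosamine, and the sort left out dead cells and CD45+ leucocytes. The dose and duration of 5-FU for these samples are not given in the sources used here, nor is the number of animals or organoid lines behind the 3 libraries of a group. The error estimates and *P* values therefore measure the spread between these libraries, which may be technical.

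5-FU is a pyrimidine analog. Its metabolites block thymidylate synthase, so that cells run short of thymidine nucleotides, and are built into RNA and DNA. Cells with working p53 answer such damage by making inhibitors of the cell cycle and mediators of cell death, and genes of DNA replication and mitosis fall when cells stop cycling. Epithelial cells under stress can also switch on keratins and barrier proteins of stratified epithelium. LGR5 itself marks stem cells in many epithelia.

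The LGR5- libraries held between 13750591 and 19323514 counted reads, with a median of 16410322. A count of 3 reads, the limit that a count of 0 allows, was 0.165 to 0.220 CPM (read counts relative to the TMM-scaled library size) in these libraries. Both replicate 3 libraries stood apart: mitochondrial genes took 6.93% of the reads in untreated replicate 3 and 6.44% in 5-FU replicate 3, against 1.64% to 3.08% in the other 4. Counts without these 2 libraries are therefore given for the gene groups. In bulk RNA, fewer cells of a type cannot be told apart from less RNA per cell.

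The labels were checked against marker genes, whose summed levels are plotted by library. *Lgr5* was present in the LGR5- cells at 27.5, 23.0 and 36.0 CPM untreated and at 21.1, 18.3 and 36.0 CPM after 5-FU. Its level in the LGR5+ libraries was 23.4 to 27.5 CPM untreated and 26.8 to 27.2 CPM after 5-FU, so that the transcript did not separate the 2 populations, which were sorted on GFP. In LGR5- cells *Lgr5* differed between treatments by a log2 fold change of -0.20 (SE 0.23, adjusted *P* = 0.618), with overlapping groups. Of 16 hepatocyte markers, 7 had no read in any untreated LGR5- library, among them *Hnf4a*, and 2 averaged more than 1 CPM, *Trf* and *Afp*. *Afp*, alpha-fetoprotein of fetal liver and liver tumors, rose from 18.0, 21.1 and 9.88 CPM to 53.9, 27.3 and 50.8 CPM (adjusted *P* = 0.0118), and its adjusted *P* was 0.107 without the replicate 3 libraries. The sum of the 16 was 45.9 to 53.1 CPM untreated and 49.3 to 89.6 CPM after 5-FU. By contrast 13 of 14 markers of lung epithelium averaged more than 1 CPM, with sums of 3695 to 17730 CPM untreated and 4698 to 6915 CPM after 5-FU. The surfactant gene *Sftpc* made up most of that sum in the untreated libraries. Of 10 cholangiocyte markers 7 averaged more than 1 CPM in untreated cells, with sums of 2475 to 2949 CPM. *Krt19* and *Epcam* among them are also in the epithelial list, while *Onecut1* was at 0 and *Cftr* under 1 CPM in every library. The defining markers thus go against a hepatocyte identity of these cells. A bile duct identity was not tested, and the tissue label is used here only as a label.

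**Figure D1:**
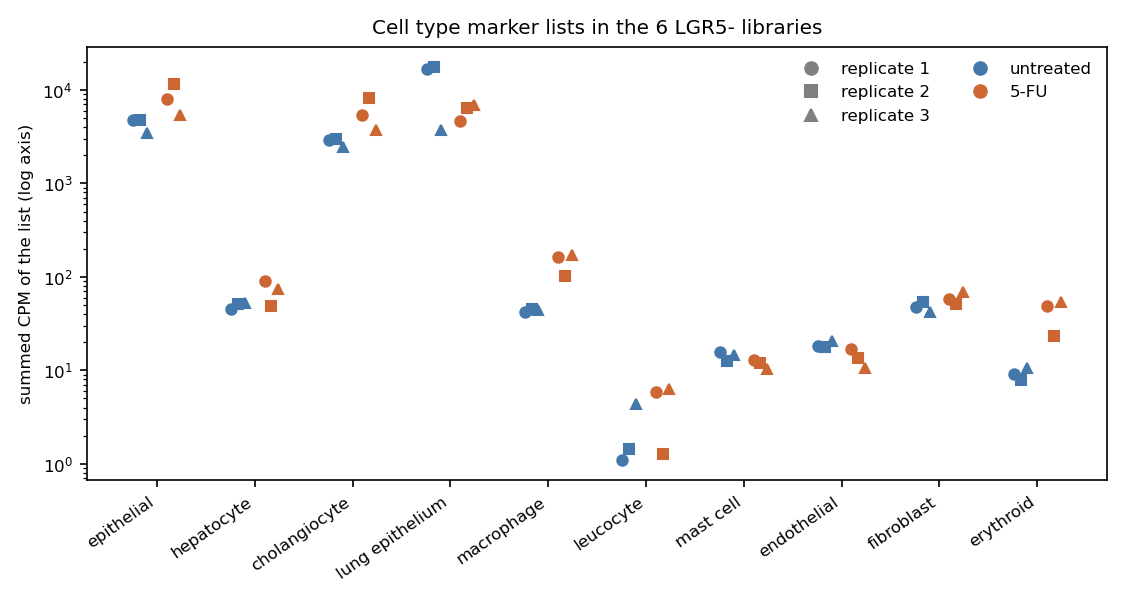
Summed CPM (log axis) of 10 marker lists in each of the 6 LGR5- libraries, blue untreated and orange 5-FU, with marker shapes for the replicate numbers. Markers of lung epithelium lie far above those of hepatocytes in every library, and the sums of the macrophage and erythroid lists are higher after 5-FU, the latter through *Hba-a1* alone.

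*Sftpc* was at 16440, 17330 and 3440 CPM in untreated cells and at 3938, 5607 and 6037 CPM after 5-FU, with untreated replicate 3 below all treated libraries. Its log2 fold change of -1.26 did not pass (SE 0.55, adjusted *P* = 0.147), and without the replicate 3 libraries it was -1.82 with an adjusted *P* of 0.0422. The markers of lung epithelium that passed were all higher after 5-FU. The surfactant gene *Sftpd* went from 56.6, 70.0 and 39.3 CPM to 301.5, 339 and 282 CPM (adjusted *P* = 7.16e-05). *Hopx* and *Ager*, markers of alveolar type 1 cells, rose by 1.35 and 1.78 on the log2 scale (adjusted *P* = 0.000763 and 0.00976). *Napsa* and the club cell gene *Scgb1a1* rose by 1.51 and 4.15 (adjusted *P* = 0.0295 and 0.0478). With libraries left out *Hopx* passed each time. *Ager* did not pass without untreated replicate 1 or without the replicate 3 libraries (adjusted *P* up to 0.0967). *Napsa* passed only without 5-FU replicate 2 or 3 and *Scgb1a1* only without 5-FU replicate 1, with an adjusted *P* of up to 0.129 and 0.174 otherwise. *Nkx2-1*, a transcription factor of lung and thyroid epithelium, was at 43.3 to 53.7 CPM untreated and 56.6 to 60.2 CPM after 5-FU, which did not pass (adjusted *P* = 0.352). The epithelial marker *Epcam* was at 1420, 1457 and 1246 CPM and at 1142, 1097 and 674 CPM (adjusted *P* = 0.164). The sum of 13 macrophage markers was 42.4 to 44.8 CPM untreated and 102 to 169 CPM after 5-FU. *Lyz2* and *Cd68* made up most of the sum after 5-FU, while *Adgre1* and *Csf1r* were under 1 CPM in every library and *Marco* was at 0. The 8 leucocyte markers summed to 1.09 to 4.39 CPM untreated and 1.29 to 6.31 CPM after 5-FU. The part of such cells in the responses below was not tested.

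Of 16157 genes tested with edgeR's quasi-likelihood test, 1341 were higher and 1148 lower after 5-FU at a Benjamini-Hochberg adjusted *P* under 0.05, which is 8.30% and 7.11% of the genes tested. By the thresholds of the study, which ask for a log2 fold change beyond 1.5 in either direction and for *P* under 0.05 before adjustment, 1131 genes passed, 686 of them higher (4.25% of the genes tested) and 445 lower (2.75%). Genes with a mean of 10 or more CPM in either group are called well measured here. Among these 9518 genes, 908 rose (9.54%) and 919 fell (9.66%). Of these 1827 genes, 1762 had no overlap between the libraries of the groups. Over all genes tested, the 5-FU libraries were all above the untreated ones in 13.7% and all below in 13.4%. The median log2 fold change of all genes tested was -0.05.

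Rises reached further than falls. Of the well-measured genes, 487 rose and 485 fell by more than 2-fold, 125 rose and 39 fell by more than 4-fold, and 44 rose and 1 fell by more than 8-fold. Because the minimum of 10 CPM had to be reached in either group, 502 genes were well measured through the 5-FU group alone and 583 through the untreated group alone. With the minimum set on the mean of all 6 libraries, 818 of 9059 genes rose and 840 fell. Without both replicate 3 libraries 988 well-measured genes rose and 1019 fell, and 760 of the 908 and 688 of the 919 passed again. All 1827 kept their direction, which was nearly fixed in advance, as 1762 of them had no overlap between the groups. The number of well-measured genes called fell from 1827 to 1153 without untreated replicate 1.

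**Figure D2:**
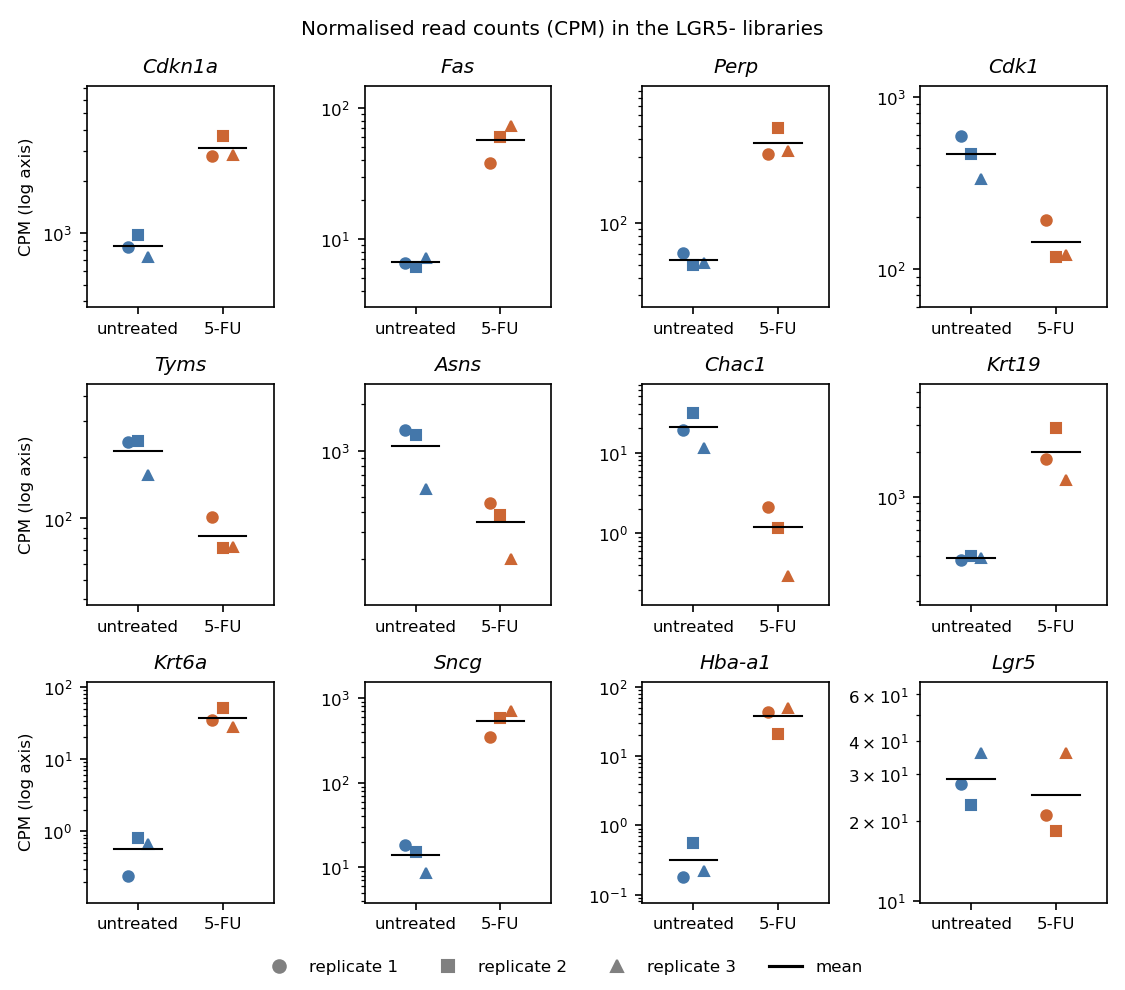
CPM (log axis) of 12 genes in the untreated (blue) and 5-FU-treated (orange) LGR5- libraries, with marker shapes for replicates 1 to 3 and a bar at the mean of 3. The groups are apart for all genes shown other than *Lgr5*.

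Of the 10 well-measured genes that rose most, *Krt16* and *Krt6a* are in the list of stratified keratins and *S100a9* in that of barrier genes. *Krt16*, a keratin of stressed and hyperproliferative epidermis, had 2 reads in the 3 untreated libraries together and 510 in the 5-FU libraries (13.5, 13.9 and 3.08 CPM), a ratio of 282 after scaling for depth with a 95% counting interval of 77.7 to 2334. *Krt6a*, its partner in the same filaments, went from 0.242, 0.823 and 0.666 CPM to 34.4, 50.1 and 27.8 CPM (log2 fold change 5.98, SE 0.58, adjusted *P* = 2.95e-05). *Krtdap*, a secreted protein of differentiating keratinocytes, went from 0.0606, 0.329 and 1.83 CPM to 31.9, 39.0 and 25.7 CPM (log2 fold change 5.41, SE 0.62). All treated libraries lay more than 10-fold above the highest untreated one for these genes. *Krt33a*, a hair keratin, rose by 5.07 on the log2 scale (SE 0.42). *S100a9*, a calcium-binding protein of neutrophils and stressed epithelium, varied widely among treated libraries, with 44.3, 2.40 and 11.2 CPM against 0.0549 to 1.05 CPM untreated. It passed with all libraries (adjusted *P* = 0.00974) and not without untreated replicate 1 (adjusted *P* = 0.0622).

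The other 5 of the 10 highest are of other kinds. *Sncg*, which encodes gamma-synuclein, was the most abundant of them, with 18.3, 15.4 and 8.55 CPM untreated and 349, 575 and 698 CPM after 5-FU (log2 fold change 5.26, SE 0.37, adjusted *P* = 2.52e-06). *Robo3*, a receptor of axon guidance, was at 0.303, 0.220 and 0.222 CPM untreated and at 14.5, 16.1 and 19.4 CPM after 5-FU (adjusted *P* = 8.59e-07). *Ces2e*, a carboxylesterase, was at 0 to 0.242 CPM and then at 11, 18.9 and 17.4 CPM (log2 fold change 7.26, SE 0.55). *Hba-a1*, an alpha-globin gene, was at 0.182, 0.549 and 0.222 CPM and then at 43.3, 21.0 and 50 CPM (log2 fold change 6.86, SE 0.45, adjusted *P* = 2.17e-06). This gene alone raised the sum of the erythroid markers. Of the others, *Slc4a1* and *Hbb-bt* were at 0 in every library, *Gata1* was under 1 CPM, and the erythropoietin receptor gene *Epor* fell from 7.63, 6.58 and 7.55 CPM to 2.71, 1.52 and 1.76 CPM (adjusted *P* = 0.000636). *Hba-a2* is nearly identical to *Hba-a1*, so the counting may have split reads between them. *Ly6g6c*, of the Ly6 family, rose by 6.24 on the log2 scale (SE 0.53). As the 10 were chosen among genes without overlap, the separation of the groups is no finding here. Of the 10, all but *Sncg* averaged under 10 CPM untreated and counted as well measured only through the 5-FU group. *Krt16*, *Krt6a*, *Robo3*, *Ces2e*, *Hba-a1* and *Ly6g6c* were under 1 CPM in every untreated library.

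The genes that fell most were led by *Chac1*, an enzyme that degrades glutathione and is switched on by ATF4. It went from 19.1, 31.4 and 11.5 CPM to 2.12, 1.17 and 0.293 CPM, a 16.8-fold fall (log2 fold change -4.07, SE 0.54, adjusted *P* = 0.000282). *Slc7a5*, the large neutral amino acid transporter, fell 6.96-fold, and *Alpl*, the tissue-nonspecific alkaline phosphatase, fell 5.36-fold. With libraries left out *Alpl* passed each time, with a log2 fold change between -3.23 and -2.08. Also among the 10 lowest were *Trib3* and *Mthfd2* of the ATF4 response and 4 clustered histone genes. *Hist1h2ao*, which encodes an H2A histone, was at 88.9, 106 and 100.2 CPM untreated and at 20.7, 13.3 and 18.5 CPM after 5-FU (log2 fold change -2.49, SE 0.21, adjusted *P* = 7.75e-06). *Hist1h1b*, *Hist1h2ap* and *Hist1h2ae* fell by 2.52, 2.60 and 2.37 on the log2 scale. The H2A genes among them have near-identical copies, so the counting may have split reads between these.

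p53 targets rose. Of 20 genes that p53 induces for cell cycle arrest and feedback, 13 rose and the other 7 did not pass, with a median log2 fold change of 1.28 over the 20, against -0.05 over all genes tested. *Cdkn1a*, which encodes the cyclin-dependent kinase inhibitor p21, was already at 830.3, 969.5 and 720.4 CPM (mean 840.1 ± 125, SD, n = 3) and reached 2826, 3687 and 2841 CPM (3118 ± 493), a 3.71-fold rise with an SE of 0.25 on the log2 scale (adjusted *P* = 0.000182). *Mdm2*, the ubiquitin ligase that holds p53 down, went from 70.7, 48.4 and 65.6 CPM to 158, 214 and 173 CPM. *Btg2*, an antiproliferative factor, rose 4.13-fold, *Trp53inp1*, a p53 cofactor, 4.60-fold, *Sfn*, which encodes 14-3-3 sigma of the G2 checkpoint, 4.23-fold, and the kinase gene *Plk2* 4.17-fold. *Ccng1*, *Gdf15* and *Phlda3* rose 3.15-fold, 3.56-fold and 3.16-fold. No treated library of these genes was as low as any untreated one. With the replicate 3 libraries left out 14 of the 20 passed, all upward.

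Of 15 p53 targets of cell death, 10 rose and 5 did not pass, with a median log2 fold change of 0.96. *Fas*, the death receptor, went from 6.54, 6.14 and 7.22 CPM to 38.3, 59.8 and 72.3 CPM (log2 fold change 3.10, SE 0.24, adjusted *P* = 3.89e-06). *Perp*, a desmosomal protein that p53 and p63 induce, went from 60.7, 49.6 and 51.6 CPM to 312, 482 and 333 CPM (log2 fold change 2.80, SE 0.24). In both genes the lowest treated library was more than 5-fold above the highest untreated one. *Bbc3*, which encodes the BH3-only protein PUMA, rose 3.29-fold, *Casp1* 2.99-fold, *Pidd1* 2.87-fold and the receptor gene *Eda2r* 2.75-fold. *Bax* rose from 512, 493 and 375 CPM to 829, 1102 and 700.4 CPM (adjusted *P* = 0.0112), and its adjusted *P* was 0.0596 without 5-FU replicate 2. The count of the list was 10 without the replicate 3 libraries, 8 without untreated replicate 2 and 7 without 5-FU replicate 2.

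Genes of mitosis fell together. All 34 listed genes of mitosis and cytokinesis were tested, 33 fell and their median log2 fold change was -1.69. *Cdk1*, the kinase that drives entry into mitosis, went from 590.3, 464 and 333 CPM (mean 462 ± 129, SD, n = 3) to 193, 117 and 119.8 CPM (143 ± 43.3) (log2 fold change -1.69, SE 0.32, adjusted *P* = 0.00294). *Kif2c*, a kinesin that depolymerizes microtubules, fell 3.78-fold, *Ttk*, a kinase of the spindle checkpoint, 3.40-fold, and *Cdc25c*, the phosphatase that activates CDK1, 3.21-fold. *Cenpa*, the histone variant of centromeres, fell 2.94-fold and *Ect2*, which positions the contractile ring, 2.78-fold. *Cdc20*, an activator of the anaphase-promoting complex, went from 228, 193 and 141 CPM to 93.8, 99.4 and 42.8 CPM (adjusted *P* = 0.0102). *Top2a* and *Mki67* fell 3.59-fold and 3.37-fold with all libraries. Their treated libraries were spread from 165 to 48.8 CPM and from 78.2 to 21.5 CPM, and without the replicate 3 libraries their adjusted *P* was 0.128 and 0.194. Neither passed without 5-FU replicate 2 or without 5-FU replicate 3, and *Mki67* did not pass without untreated replicate 2 or 3 either. Without both replicate 3 libraries 26 of the 34 passed, all downward, and with single libraries left out 26 to 34 passed.

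Of 29 mitotic genes matched to RefSeq promoter windows (GRCm38.p6, 250 bases before to 50 bases after a start), 22 held the letters TTTGAA of the cell cycle homology region on either strand. By window these were 24 of 31 or 77.4%, against 17.9% of all 32851 windows of this length. The 100 bases before the start of *Cdk1* and *Cdc20* are shown as examples with such letters close to the start, given in capitals. *Cdk1* fell about as much as the median of its list, and *Cdc20* less. A match is a description of the sequence and was not tested against binding.
*Cdk1* (chr10:69352913-69353012, minus strand): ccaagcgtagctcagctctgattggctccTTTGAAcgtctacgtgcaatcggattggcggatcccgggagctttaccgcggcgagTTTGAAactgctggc
*Cdc20* (chr4:118437344-118437443, minus strand): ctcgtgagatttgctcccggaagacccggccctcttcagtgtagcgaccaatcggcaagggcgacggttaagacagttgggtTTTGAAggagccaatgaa

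Of 41 genes of the replication machinery, 32 fell and 9 did not pass, with a median log2 fold change of -1.44. *Gins1*, a subunit of the replicative helicase, was at 44.7, 44.1 and 32.9 CPM and then at 14.5, 9.31 and 6.90 CPM (log2 fold change -1.98, SE 0.34, adjusted *P* = 0.00168). *Prim1*, the primase, fell 3.02-fold, *Pole2*, a subunit of polymerase epsilon, 2.28-fold, and *Rfc3*, a subunit of the clamp loader, 2.14-fold. *Pole*, the catalytic subunit, fell 4.47-fold, with an adjusted *P* of 0.0602 without the replicate 3 libraries. *Mcm5*, a helicase subunit, went from 93.6, 93.0 and 52.0 CPM to 38, 24.1 and 15.8 CPM (adjusted *P* = 0.0133). It did not pass without untreated replicate 1, without 5-FU replicate 2 or 3 or without the replicate 3 libraries (adjusted *P* up to 0.0617). Without the replicate 3 libraries 24 of the 41 passed. The count depended on single libraries: it was 15 without untreated replicate 1, 18 without untreated replicate 2, 16 without 5-FU replicate 2 and 19 without 5-FU replicate 3, all downward.

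Among 32 replication genes with a promoter window, 14 held an E2F motif (TTTGGCGC, TTTCCCGC, TTTGCCGC or TTTCGCGC, either strand), in 14 of 37 windows or 37.8%, against 2.26% of all windows. Of the mitotic windows 3.23% held one, and TTTGAA was in 13.5% of the replication windows. *Mcm5* is shown because 2 of these motifs overlap before its start, as the run in capitals.
*Mcm5* (chr8:75109329-75109508, plus strand): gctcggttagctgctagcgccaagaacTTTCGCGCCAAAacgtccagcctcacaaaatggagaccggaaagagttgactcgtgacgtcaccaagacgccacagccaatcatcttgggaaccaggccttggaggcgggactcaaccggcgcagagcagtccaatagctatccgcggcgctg

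Regulators of the G1/S transition moved both ways, with 3 of 24 higher and 7 lower, against 8.30% and 7.11% of all genes tested. Of the D-type cyclins, *Ccnd2* and *Ccnd1* rose 2.86-fold and 2.30-fold (adjusted *P* = 0.000162 and 0.0061), while *Ccnd3* had a log2 fold change of 0.29 and did not pass (adjusted *P* = 0.404), and *Ccnd2* was at 649, 656 and 689 CPM in treated cells. *Cdk2*, *Cdc25a* and *E2f1*, which act at the start of S phase, fell 2.5-fold, 2.34-fold and 2.56-fold. The number lower was 4 without untreated replicate 1, untreated replicate 2, 5-FU replicate 2 or 5-FU replicate 3, and 11 without 5-FU replicate 1. With both replicate 3 libraries left out 3 were higher and 5 lower.

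Of 30 DNA repair genes 16 fell and 14 did not pass, with a median log2 fold change of -0.98. *Rad54l*, of homologous recombination, fell 3.42-fold, *Chek1*, the checkpoint kinase, 3.24-fold, *Fanca*, of crosslink repair, 2.76-fold, *Mbd4*, a glycosylase that removes mispaired thymine and uracil, 2.52-fold, and *Msh3*, of mismatch repair, 2.08-fold. The count was 10 without the replicate 3 libraries. It was 7 and 10 without untreated replicates 1 and 2, and 5 and 6 without 5-FU replicates 2 and 3.

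The target of the drug fell. *Tyms*, thymidylate synthase, was at 238, 239.8 and 163 CPM untreated (mean 214 ± 43.9, SD, n = 3) and at 101, 71.8 and 72.7 CPM after 5-FU (81.9 ± 16.7) (log2 fold change -1.38, SE 0.27, adjusted *P* = 0.00347). The groups did not overlap, and the adjusted *P* was 0.00706 without the replicate 3 libraries. Of 16 genes of thymidylate and deoxynucleotide synthesis, 9 fell and 1 rose. *Dut*, which removes dUTP, went from 292, 329.9 and 198 CPM to 162, 86.7 and 91.4 CPM, and *Tk1*, the thymidine kinase of S phase, from 201, 226 and 157 CPM to 107, 48.8 and 40.3 CPM. Neither passed without 5-FU replicate 2 or without 5-FU replicate 3, nor *Tk1* without the replicate 3 libraries, with an adjusted *P* of up to 0.0532 for *Dut* and 0.0776 for *Tk1*. *Ggh*, which removes the glutamate tails of folates, rose 2.15-fold. The number that fell was 4 without the replicate 3 libraries, 4 without untreated replicate 1 or 2, 2 without 5-FU replicate 2 and 1 without 5-FU replicate 3.

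Of 13 tested genes of 5-FU uptake, activation and breakdown 3 rose and 3 fell, and likewise without the replicate 3 libraries. Of those that fell, *Slc29a1* and *Slc29a2* are nucleoside transporters and *Umps*, which links orotate to phosphoribose, is an enzyme. *Cda*, cytidine deaminase, went from 10.8, 12.3 and 8.61 CPM to 21.3, 21.4 and 32.1 CPM (adjusted *P* = 0.00267). *Slc29a1* went from 135, 154 and 118 CPM to 86.0, 60.6 and 57.8 CPM (adjusted *P* = 0.0106), and *Slc29a2* fell 3.12-fold. *Umps* went from 89.4, 87.0 and 38.5 CPM to 39.1, 35.1 and 19.7 CPM (adjusted *P* = 0.0334), with overlapping groups, and did not pass without untreated replicate 1 or 2 or without 5-FU replicate 2 or 3 (adjusted *P* up to 0.136). *Uck2*, a uridine kinase, was at 93.4 to 157 CPM and at 61.5 to 108 CPM, which did not pass (adjusted *P* = 0.116). *Dpyd*, the enzyme that degrades 5-FU, was under 2 CPM in every library and did not pass (adjusted *P* = 0.22). The number higher was 1 without untreated replicate 2 or 5-FU replicate 2.

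Genes of the ATF4 response fell. ATF4 is a transcription factor that induces amino acid transport, serine and asparagine synthesis and tRNA charging when amino acids are short or proteins misfold. Of 36 listed genes 23 fell and 13 did not pass, with a median log2 fold change of -1.07. *Asns*, asparagine synthetase, went from 1371, 1269 and 566 CPM (mean 1069 ± 438, SD, n = 3) to 459.8, 382 and 199.5 CPM (347 ± 134) (log2 fold change -1.62, SE 0.37, adjusted *P* = 0.00918). *Psph*, the last enzyme of serine synthesis, went from 62.0, 71.4 and 56.6 CPM to 19.0, 18.6 and 19.4 CPM, with treated libraries almost level (adjusted *P* = 7.96e-05). *Slc7a1*, a transporter of cationic amino acids, fell 2.99-fold. *Mthfd2*, of mitochondrial folate metabolism, went from 66.1, 89.3 and 53.1 CPM to 17.7, 14.6 and 8.66 CPM, and *Trib3*, a pseudokinase that restrains ATF4, from 21.3, 31.0 and 16.9 CPM to 5.77, 4.22 and 2.71 CPM. *Atf4* itself fell 1.95-fold (adjusted *P* = 0.00618). Without the replicate 3 libraries 20 of the 36 fell and 1 rose.

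Of 31 ATF4 response genes with a promoter window, 12 held TGATGNAA, the core of the C/EBP-ATF response element, on either strand. This was 12 of 35 windows or 34.3%, against 3.97% of all windows. As the list was made of genes known to be induced by ATF4, such a share follows in part from its making. Its relation to the fall was not tested. The bases before the starts of *Asns* and *Chac1* are shown as examples of list members that fell and hold the motif, given in capitals, which lies on the opposite strand in *Chac1*.
*Asns* (chr6:7693210-7693309, minus strand): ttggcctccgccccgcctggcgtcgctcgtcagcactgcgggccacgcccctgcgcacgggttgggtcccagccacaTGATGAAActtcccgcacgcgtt
*Chac1* (chr2:119351042-119351241, plus strand): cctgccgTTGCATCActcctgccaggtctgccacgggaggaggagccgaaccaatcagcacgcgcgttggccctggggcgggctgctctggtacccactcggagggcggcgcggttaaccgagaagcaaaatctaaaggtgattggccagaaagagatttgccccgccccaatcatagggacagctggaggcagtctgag

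Keratins rose. Of 14 listed keratins of stratified and stressed epithelium 13 were tested and 11 rose, with a median log2 fold change of 3.54. *Krt17* went from 9.76, 6.53 and 11.6 CPM to 71.5, 171 and 82.4 CPM, and the basal pair *Krt14* and *Krt5* rose 7.33-fold and 6.39-fold. *Krt14* was at 127, 193 and 66.5 CPM in treated cells and *Krt5* at 123, 187 and 52.7 CPM, with 5-FU replicate 3 lowest in both. Of these 13 genes, 9 were well measured and 7 of them rose. All 5 simple epithelial keratins rose. *Krt19*, a keratin of ducts, went from 374, 402 and 385 CPM (mean 387 ± 14.1, SD, n = 3) to 1773, 2862 and 1292 CPM (1976 ± 804) (log2 fold change 2.35, SE 0.30, adjusted *P* = 0.000168), and *Krt7* rose 3.37-fold. *Krt8* and *Krt18* rose 2.92-fold and 2.14-fold, with an adjusted *P* of 0.0929 and 0.0905 without 5-FU replicate 2. Without the replicate 3 libraries 12 stratified and 5 simple keratins rose. Without 5-FU replicate 2 the simple keratins that passed were 3. Keratin genes are a family of similar sequences, so the counting may have split reads between them.

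Of 34 listed genes of the squamous barrier, desmosomes and stefins, 29 were tested, and 20 of these rose and 9 did not pass. *Tgm1*, the transglutaminase that crosslinks the cornified envelope, went from 14.4, 13.9 and 7.61 CPM to 50.6, 80.5 and 56.6 CPM (adjusted *P* = 8.44e-05). *S100a14* rose 3.89-fold, *Anxa1* 4.37-fold and the serpin gene *Serpinb5* 3.02-fold. *Klf4*, a transcription factor of barrier formation, went from 4.85, 5.38 and 4.22 CPM to 13.5, 18.3 and 20.1 CPM. *Trp63*, the transcription factor of basal squamous cells, was at 2.24, 2.19 and 5.33 CPM untreated and at 2.47, 1.99 and 5.13 CPM after 5-FU (adjusted *P* = 0.97). In the absence of the replicate 3 libraries 19 passed, all upward. A gene at or near 0 in untreated cells could be tested only where 5-FU brought it over the minimum, and the counts for keratins and barrier genes are to be read with that.

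**Figure D3:**
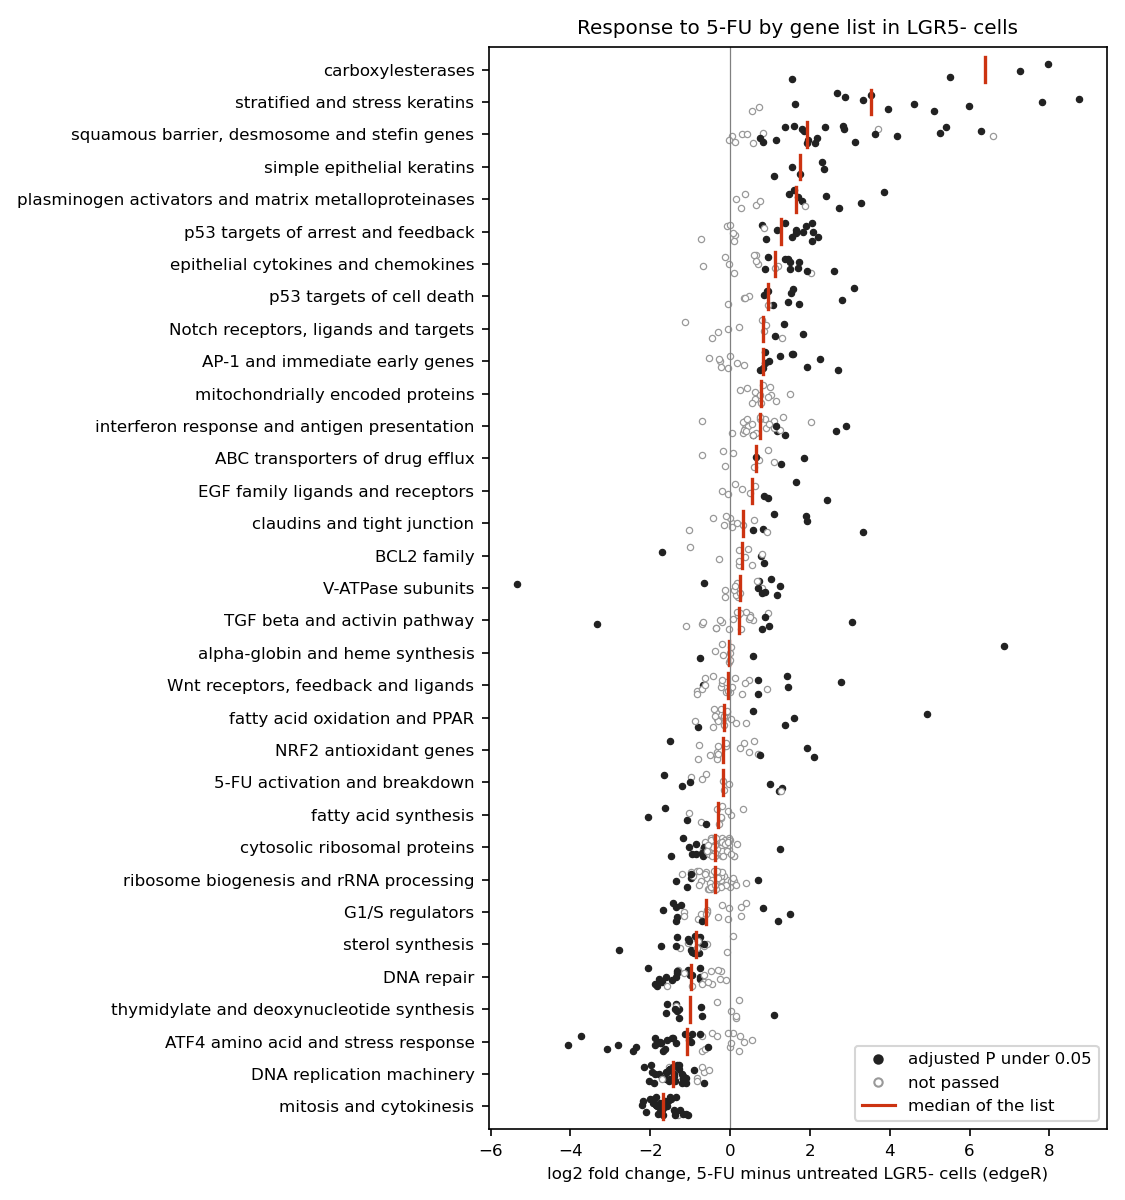
Log2 fold change (5-FU minus untreated LGR5- cells) of each tested member of 33 gene lists, filled where the adjusted *P* was under 0.05, with a red bar at the median of the list. Lists are ordered by their medians, and the lowest is mitosis and cytokinesis with -1.69 over 34 genes. The carboxylesterase median of 6.39 rests on 4 tested genes of 17 listed and was 2.41 over 10 genes without the filter on low counts.

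Immediate early genes and secreted factors rose in part. Of 19 AP-1 and immediate early genes 11 rose and 8 did not pass, with a median log2 fold change of 0.82. *Dusp1*, a phosphatase of MAP kinases, went from 8.24, 6.53 and 7.33 CPM to 25.5, 55.3 and 62.2 CPM (adjusted *P* = 0.000216), and *Junb*, *Klf6* and *Fos* rose 2.37-fold, 2.95-fold and 2.97-fold. The count was 10 without the replicate 3 libraries and 7 without untreated replicate 2 or 5-FU replicate 2. *Areg*, a ligand of the EGF receptor, went from 6.54, 10.5 and 6.16 CPM to 35.2, 42.8 and 47.5 CPM (log2 fold change 2.44, SE 0.23, adjusted *P* = 1.92e-05). Of 10 EGF family genes tested 4 rose and 6 did not pass. The number higher was 2 without untreated replicate 1 and 4 without the replicate 3 libraries.

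Of 25 listed epithelial cytokines and chemokines 21 were tested, of which 10 rose and 11 did not pass. Of 12 well-measured ones 7 rose. *Cxcl16*, a membrane-bound chemokine, rose 3.23-fold, *Lif* 2.84-fold, *Il18* 2.60-fold and *Il33* 1.92-fold. *Csf2*, which encodes GM-CSF, went from 20.5, 18.1 and 16.1 CPM to 39.8, 55.9 and 111 CPM, with 5-FU replicate 3 highest. Of 20 listed plasminogen activators, matrix metalloproteinases and their inhibitors 14 were tested and 8 rose. Of 9 well-measured ones 4 rose, and with at least 10 reads in every library 6 of 11 did. A gene at or near 0 in untreated cells could be tested only where 5-FU brought it over the minimum, in this list and in that of cytokines. *Mmp7*, matrilysin, went from 10.4, 8.61 and 19.2 CPM to 84.0, 190.3 and 282 CPM (log2 fold change 3.86, SE 0.51, adjusted *P* = 0.000291). *Serpine2*, an inhibitor of plasminogen activators, went from 134, 112 and 97.3 CPM to 552, 719 and 538 CPM, and *Timp3* and *Plaur* rose 2.78-fold and 3.05-fold. Without the replicate 3 libraries 10 and 9 of these lists passed. Of 30 interferon response genes 6 rose, against 8.30% of all genes tested. *Tap1* and *Ifi35* rose 2.21-fold and 2.25-fold. That count was 3 without the replicate 3 libraries, 3 without untreated replicate 1 or 5-FU replicate 3, and 2 without 5-FU replicate 1.

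The AP-1 motif TGANTCA, whose letters read the same on both strands, was in 28.6% of 7 promoter windows of stratified keratins, with both matching windows from 1 of 6 genes, in 33.3% of 24 windows of barrier genes and in 41.2% of 17 windows of the plasminogen and metalloproteinase list, against 7.81% of all windows. *Mmp7* is shown because it rose most among the genes of its list named above, with the motif in capitals.
*Mmp7* (chr9:7691990-7692089, plus strand): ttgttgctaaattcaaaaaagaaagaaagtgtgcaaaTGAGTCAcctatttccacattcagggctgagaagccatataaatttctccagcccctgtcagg

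Genes of Wnt, Notch and TGF beta signaling moved singly. Of 25 Wnt pathway genes 5 rose and 1 fell, against 8.30% and 7.11% of all genes tested. The ligands *Wnt4*, *Wnt7b* and *Wnt10a* rose 6.91-fold, 2.72-fold and 2.70-fold, with *Wnt4* at 2.42, 3.18 and 3.11 CPM untreated and 11.4, 25.2 and 23.9 CPM treated. Without the replicate 3 libraries 3 rose and 3 fell, and without untreated replicate 3 the numbers were 3 and 4. The number higher was also 3 without untreated replicate 1 or 5-FU replicate 2. The single fall was lost without untreated replicate 1 or 2 and without 5-FU replicate 2 or 3. Of 12 Notch pathway genes 3 rose, the receptor *Notch1* 3.55-fold, the target *Hes1* 2.57-fold and the ligand *Jag1* 2.17-fold. *Notch1* was level among treated libraries at 58.4, 54.5 and 54.5 CPM, against 12.9 to 19.3 CPM untreated. Of 24 TGF beta and activin genes 4 rose and 1 fell, against the same 8.30% and 7.11%. *Fst*, which encodes the activin antagonist follistatin, went from 4.54, 3.84 and 3 CPM to 27.4, 38.5 and 29.4 CPM (log2 fold change 3.06, SE 0.23, adjusted *P* = 3.3e-06). *Inhbb*, *Ski* and *Tgfbr2* rose 1.97-fold, 1.84-fold and 1.75-fold. Without the replicate 3 libraries 4 Notch genes rose and 1 fell, and 5 TGF beta genes rose and 1 fell. The number of TGF beta genes lower was 2 without untreated replicate 3 or 5-FU replicate 1, and the single fall was lost without 5-FU replicate 2.

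Sterol synthesis genes, which the SREBP2 transcription factor drives, fell. Of 24 genes 14 fell and 10 did not pass, with a median log2 fold change of -0.86. *Lss*, lanosterol synthase, went from 61.0, 59.9 and 42.0 CPM to 19.5, 16.9 and 13.1 CPM, a 3.29-fold fall (adjusted *P* = 0.000173). *Tm7sf2*, a sterol reductase, fell 2.56-fold and *Insig1*, a sterol sensor of the endoplasmic reticulum, 2.04-fold. The count was 19 without the replicate 3 libraries and 22 without untreated replicate 3. It was 9 and 8 without untreated replicates 1 and 2, and 8 without 5-FU replicate 3. The letters TCACNCCAC of the sterol response element were in 1 of 19 windows of these genes and in 1.24% of all windows.

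Ribosome genes moved less. Of 42 genes of ribosome biogenesis 4 fell and 1 rose, a share lower that is near the 7.11% of all genes tested, with a median log2 fold change of -0.38. *Npm1*, nucleophosmin, was at 1388, 1546 and 865 CPM and at 694, 648 and 460.4 CPM (adjusted *P* = 0.00943), and *Tcof1*, of rRNA transcription, fell 2.55-fold. The number lower was 13 without the replicate 3 libraries, 15 without untreated replicate 3 and 2 without untreated replicate 2. The single rise was lost without the replicate 3 libraries or untreated replicate 1. Of 78 cytosolic ribosomal protein genes 9 fell and 1 rose, against the same 7.11%, with a median of -0.38, and 11 fell without the replicate 3 libraries. *Rpl3* was at 1910, 1888 and 1432 CPM and at 939.6, 529 and 410.4 CPM (adjusted *P* = 0.00758). The number lower was 3, 1, 2 and 3 without untreated replicate 1, untreated replicate 2, 5-FU replicate 2 and 5-FU replicate 3, and the single rise was lost without untreated replicate 1 or 2 or 5-FU replicate 3. Of the 13 mitochondrially encoded protein genes none passed with edgeR or DESeq2, 1 was higher at an unadjusted *P* under 0.05, and 3 rose without the replicate 3 libraries or without untreated replicate 3, and 1 without 5-FU replicate 1. Processed copies of ribosomal protein genes can take reads from their parents.

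The response was set beside that of the LGR5+ cells, which have their own untreated libraries. Of the 908 well-measured genes that rose in LGR5- cells, 760 or 83.7% also rose in LGR5+ cells, which is 69.4% of the 1095 well-measured genes that rose there. Of the 919 that fell, 578 or 62.9% also fell in LGR5+ cells, 76.5% of 756. The direction was the same in 906 of the 908 and 916 of the 919. In a test of the difference between the responses no gene passed with edgeR (smallest adjusted *P* 0.9998) or with DESeq2, and 254 genes had an unadjusted *P* under 0.05, 132 of them well measured. The 5 well-measured genes with the smallest unadjusted *P* were *Rpl30-ps10*, *Gm10123*, *Adgrg1*, *Lyz2* and *Gm12191*, of which *Rpl30-ps10* is a pseudogene and *Gm10123* and *Gm12191* are unnamed gene models.

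*Lyz2*, lysozyme M of macrophages and alveolar type 2 cells, went from 10.1, 5.71 and 3.61 CPM to 74.5, 55.7 and 98.3 CPM in LGR5- cells (log2 fold change 3.56, SE 0.37, adjusted *P* = 4.44e-05). In LGR5+ cells its mean went from 19.8 to 68.6 CPM (log2 fold change 1.79, SE 0.34). The responses differed by 1.77 on the log2 scale (SE 0.48, adjusted *P* = 0.9998), which did not pass. *Cd68*, a lysosomal protein of macrophages, went from 5.94, 6.31 and 9.99 CPM to 39.0, 16.6 and 30.3 CPM in LGR5- cells. *Gm10123* fell by 1.27 on the log2 scale in LGR5- cells and was 0.12 higher in LGR5+ cells, and *Adgrg1*, an adhesion receptor, was 0.29 higher and 1.11 higher. *Rpl30-ps10* had a log2 fold change of 0.59 in LGR5- and -1.64 in LGR5+ cells, and *Gm12191* one of 0.23 and -1.29.

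**Figure D4:**
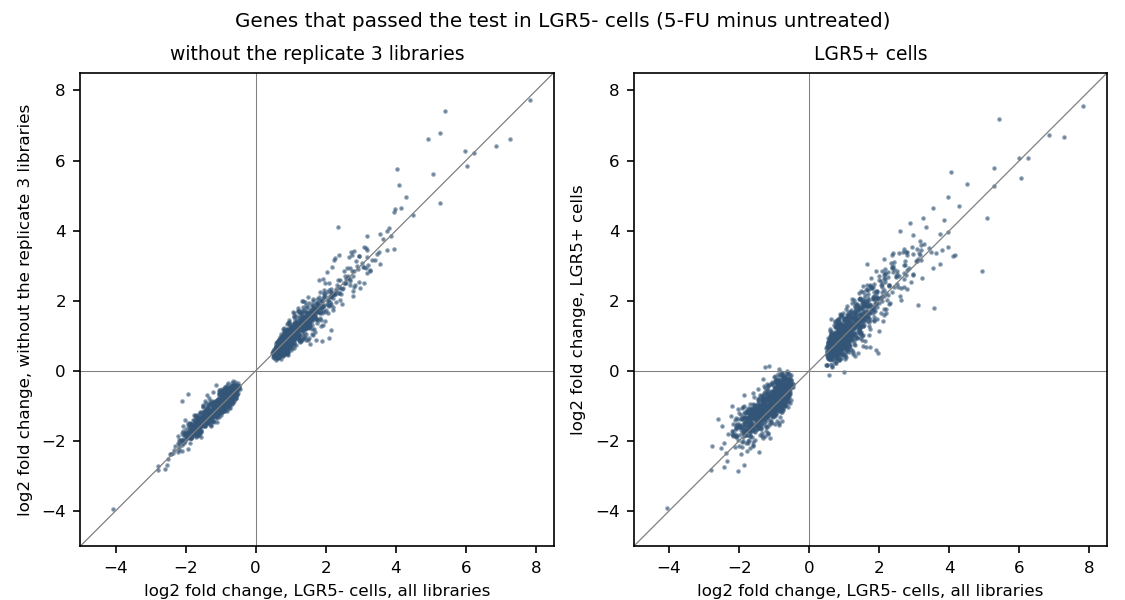
Log2 fold changes of the 1827 well-measured genes that passed in LGR5- cells, with all libraries on the x axes, against the same without the replicate 3 libraries (left) and against the LGR5+ cells (right), with the line of equality in gray. All 1827 keep their direction on the left, which was nearly fixed in advance, as 1762 of them had no overlap between the groups. On the right 906 of 908 and 916 of 919 have the same direction.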

How the data were processed

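After the sort by GFP, RNA was taken up with the RNeasy Micro kit and amplified by SMARTer chemistry, and both ends of the fragments were read over 150 bases. The authors deposited raw counts, which are whole numbers of reads per Ensembl gene and library without normalization. The submitters' processing notes name HISAT2, HISAT, TopHat2, HTSeq and mm8, with no versions or roles. Symbols came from GENCODE M21 (46488 of 47069 identifiers matched) and promoter sequences from RefSeq on GRCm38.p6. Whether strand was used in counting is not given in the sources used here.

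The counts of all 12 libraries passed through filterByExpr (16157 genes left) and TMM scaling, and a model was fitted with edgeR 4.0.16 in R 4.3.3 (robust quasi-likelihood, 1 mean per group, 8 residual degrees of freedom). The biological coefficient of variation was 26.6%. Contrasts were tested two-sided and adjusted by Benjamini-Hochberg over all genes tested. The SE is the log2 fold change divided by the square root of F, and folds are fitted values. With 3 libraries against 3, an exact permutation test cannot go below *P* = 0.1 and was not used. Intervals and limits for low counts cover counting error only. No 2 LGR5- libraries of a group agreed within sampling noise. The scripts were tested on simulated data.

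The members, 33 gene lists and 10 marker lists were chosen with earlier results of these data known. Named genes are *Lgr5*, the 10 highest and 10 lowest log2 fold changes among well-measured genes that passed without overlap (unnamed models and pseudogenes left out), up to 5 well-measured members per list with the smallest *P*, other list or marker members given by their values, and the 5 smallest *P* of the difference between responses. A few genes that this rule names are not reported here. Alternatives were other filters and scalings, DESeq2 1.42.0, the 6 LGR5- libraries alone, a replicate block and libraries left out.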

Additional observations from a re-analysis of the deposited data

How the results depend on the processing

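The 1827 well-measured genes that passed kept their direction without the replicate 3 libraries. As 1762 of them had no overlap between the groups, leaving libraries out could hardly turn them, and the kept direction is no test. No named gene that passed reversed under any of the alternatives, which is to be read with the same limit. With all genes left unfiltered 1806 genes passed the thresholds of the study, and with at least 10 reads in every library 564 did, against 1131. In a fit of the 6 LGR5- libraries alone, with fewer residual degrees of freedom, 1282 genes passed at an adjusted *P* under 0.05 against 2489, and 1010 of the well-measured genes against 1827. In that fit *Bax*, *Fads1*, *Krt8*, *Krt18*, *Npm1* and *Umps* did not pass. The number that fell was 23 for replication, 17 for the ATF4 response, 9 for DNA repair, 4 for thymidylate synthesis and 9 for sterol synthesis. It was 1 each for fatty acid synthesis, ribosome biogenesis, ribosomal proteins and V-ATPase subunits. The number that rose was 7 for p53 targets of cell death, 6 for AP-1, 3 each for simple keratins, Wnt and claudins, and 2 for EGF. It was 1 each for 5-FU uptake and metabolism, ABC transporters and heme synthesis, and 0 for the BCL2 family. The single falls in the Wnt, fatty acid oxidation and heme lists and the single rises in both ribosome lists were lost as well. With single libraries or both replicate 3 libraries left out, these counts ranged from 1562 to 3418 and from 1153 to 2431, and the count by the thresholds of the study from 1025 to 1536. The count of 2489 was lowest without untreated replicate 1 (1562), 1645 without untreated replicate 2, 1647 without 5-FU replicate 2 and highest without untreated replicate 3. Without 5-FU replicate 3 the share higher among the genes called was 66.1%, against 53.9%. DESeq2 called 3152 genes, among them 15 ribosomal protein genes that fell, 5 ABC transporters that rose, and 3 Wnt, 3 TGF beta and 2 NRF2 genes that fell. With all genes left unfiltered *Ager*, *Mcm5*, *Mki67*, *Napsa*, *Scgb1a1*, *Top2a* and *Umps* did not pass. The number that fell was then 20 for replication, 10 for DNA repair, 4 for thymidylate synthesis, 5 for ribosomal proteins and 1 for V-ATPase, and 5 ABC transporters and 1 heme synthesis gene rose. With at least 10 reads in every library 6 stratified keratins, 13 barrier genes and 1 gene of the heme list rose. The log2 fold change of *Trp63*, which did not pass, was 0.009974 with all genes left unfiltered and ranged from -0.51 to 0.51 with libraries left out, and that of *Gm12191* ranged from -0.15 to 0.47. With a replicate block within each population 3009 genes passed, and with a block over all 12 libraries 2890. The same numbers share no stated batch: deviations from the group means correlated at 0.072, 0.325 and 0.462 between same-numbered samples and at -0.45 to 0.422 between the others, and untreated replicate 1 correlated most with 5-FU replicate 2. With the block within each population 13 genes of ribosome biogenesis, 5 of Wnt and 2 each of the TGF beta and NRF2 lists fell, 1 heme synthesis gene and 3 mitochondrially encoded genes rose, where none of the latter passed without it, and *Mki67* did not pass. With the block over all 12 libraries 9 genes of ribosome biogenesis, 3 of Wnt and 2 of TGF beta fell, and 5 ABC transporters rose. The causes of these shifts were not tested. Genes near the limit of 3 reads could not be told from absent ones.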

Other observations

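Of 17 listed carboxylesterases 10 had any read and 4 enough to be tested, *Ces2e*, *Ces1d*, *Ces2f* and *Ces2g*, which were higher after 5-FU, also without the replicate 3 libraries. *Ces2e*, *Ces2f* and *Ces2g* were near or at 0 untreated and could be tested only through the 5-FU libraries, so that their direction was fixed by the filter on low counts. With at least 10 reads asked of every library 1 of the genes was left, with a log2 fold change of 1.58. These genes resemble each other in sequence, so the counting may have split reads between them. Of 17 claudins and tight junction genes 6 rose, and 6 did so without the replicate 3 libraries. *Cldn4*, a barrier-forming claudin, went from 50.4, 49.8 and 28.8 CPM to 126, 234 and 128 CPM (adjusted *P* = 0.000561), and *Cldn23* and *Cldn6* rose 3.74-fold and 2.14-fold. Of 19 subunits of the V-ATPase, the proton pump of lysosomes, 7 rose and 2 fell, against 8.30% and 7.11% of all genes tested. *Atp6v0e2* rose 2.06-fold and *Atp6v1d* 2.26-fold. Of the 2 that fell 1 was well measured, and the lowest log2 fold change of the list was -5.34. The numbers higher and lower were 7 and 2 without the replicate 3 libraries. The number lower was 1 with any single library other than untreated replicate 3 left out.

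Of 14 fatty acid synthesis genes 4 fell, among them the elongase *Elovl6* 3.09-fold and the desaturase *Fads1* 2.10-fold. That count was 3 without the replicate 3 libraries and 2 without untreated replicate 1, untreated replicate 2, 5-FU replicate 2 or 5-FU replicate 3. Of 21 genes of fatty acid oxidation and PPAR 4 rose and 1 fell, with and without the replicate 3 libraries, against 8.30% and 7.11% of all genes tested. The single fall was lost without untreated replicate 1, untreated replicate 2 or 5-FU replicate 2. *Plin2*, which coats lipid droplets, went from 42.2, 38.6 and 30.8 CPM to 110.5, 140.3 and 89.5 CPM (adjusted *P* = 0.000172). *Pdk4*, which restrains glucose oxidation, rose 2.58-fold, and *Fabp4*, a fatty acid binding protein of adipocytes and macrophages, was at 0, 0.220 and 0.888 CPM and then at 16.8, 6.97 and 11.2 CPM (adjusted *P* = 0.0034).

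Of 22 NRF2 antioxidant genes 3 rose and 1 fell, against 8.30% and 7.11% of all genes tested, and 2 fell without the replicate 3 libraries or untreated replicate 3. *Osgin1* rose 4.26-fold, while *Tkt*, transketolase of the pentose phosphate pathway, fell 2.82-fold. Of 11 ABC transporters of drug efflux 3 rose, likewise 3 without the replicate 3 libraries and 1 without untreated replicate 2. *Abcb1b*, a P-glycoprotein gene, went from 3.33, 2.58 and 2.89 CPM to 12.7, 8.08 and 11.1 CPM (adjusted *P* = 0.000977). Of 12 BCL2 family genes 2 rose and 1 fell, against 8.30% and 7.11% of all genes tested. The gene that fell was the proapoptotic *Bok*, 3.28-fold. The number higher was 3 without the replicate 3 libraries, 4 without untreated replicate 3 and 1 without 5-FU replicate 2. Of 10 alpha-globin and heme synthesis genes 2 rose and 1 fell, against 8.30% and 7.11% of all genes tested. The number higher was 1 without the replicate 3 libraries or without untreated replicate 1, untreated replicate 2, 5-FU replicate 2 or 5-FU replicate 3. The single fall was lost without untreated replicate 1, untreated replicate 2 or 5-FU replicate 3.

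Further marker lists gave these sums over the 3 untreated and the 3 5-FU libraries. Epithelial markers, which include keratins named in the report, summed to 3434 to 4794 and 5338 to 11510 CPM, and cholangiocyte markers to 2475 to 2949 and 3699 to 8193 CPM. Erythroid markers summed to 7.85 to 10.6 and 23.5 to 53.3 CPM, a rise that *Hba-a1* alone carried while *Epor* fell. Fibroblast markers summed to 42.0 to 53.9 and 50.9 to 68.4 CPM. Endothelial markers summed to 17.8 to 20.5 and 10.5 to 17 CPM, and mast cell markers to 12.7 to 15.8 and 10.3 to 12.8 CPM.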
